A study of Mus musculus with 15 samples.

Results

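The genes described here are 43 mouse genes of fatty acid breakdown and of the peroxisome, listed by function and found by symbol among the 46603 Ensembl gene identifiers counted in each sample. The list holds 21 genes of mitochondrial fatty acid oxidation and 22 peroxisomal genes, of which 10 carry out oxidation or substrate transport and 12 are Pex genes of peroxisome assembly. RNA-Seq counts were available for 15 samples of mouse embryonic fibroblasts (MEFs), primary connective tissue cells with a wild-type BALB/c background taken from embryos labelled as 10.5 days old, with 3 samples per condition numbered 1, 3 and 4. The study's introduction describes MEFs from another strain and from older embryos, and its methods name neither for these cells. MEFD0 was harvested at the start. MEFD3plu and MEFD5plu were grown in DMEM with 10% serum, to which an adipogenic mix was added for the first 3 days (rosiglitazone, a PPARG agonist, at 10 µM, dexamethasone, a glucocorticoid, at 1 µM, insulin at 10 µg/mL and IBMX, a phosphodiesterase inhibitor, at 0.5 mM). MEFD5plu then stayed in growth medium without these factors until day 5, and MEFD3min and MEFD5min were kept in growth medium throughout. Nothing in the labels says whether the samples of a condition were separate cultures or embryos, so p-values measure only the spread between these samples.

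Fatty acids enter the mitochondrial matrix as carnitine esters and are shortened there by repeated rounds of dehydrogenation, hydration, a further dehydrogenation and thiolysis, with the electrons passed to the respiratory chain by the electron transfer flavoprotein. Peroxisomes run a similar cycle on very long and branched chains with their own oxidases, bifunctional enzymes and thiolases, and they depend on the Pex proteins to insert membrane proteins, import matrix enzymes and divide. In fat cells this machinery sits beside lipid synthesis and storage, and many of its genes are known targets of the PPAR family of nuclear receptors.

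Total counts lay between 24030558 and 37281126 per sample. The summed level of 7 adipocyte markers was 42.2 to 65.2 CPM (counts relative to the library total, scaled by edgeR's TMM factors) over the 9 day 0 and untreated samples, 7441 to 9166 in MEFD3plu and 9670.1 to 11428 in MEFD5plu. The 7 fibroblast markers were present in all 15 samples, at a summed 8239 to 11945 CPM in the other conditions and 18018 to 25582 in MEFD3min. At day 3 the treated samples lay below the untreated ones for Col1a1, Col1a2, Col3a1, Pdgfra, Thy1 and Vim and overlapped them for Pdgfrb. At day 5 they lay below for Col1a1 and Col1a2, above for Col3a1, Pdgfra and Pdgfrb, and overlapped for Thy1 and Vim. Defining markers of other cell types were at or under 3 counts in every sample for 4 of 6 skeletal muscle, 2 of 6 macrophage, 1 of 4 endothelial, 3 of 4 epithelial and 2 of 4 hepatocyte genes. The other markers were low, and some moved with treatment. In MEFD5min and MEFD5plu the summed muscle markers were 1.28 to 1.56 and 3.54 to 4.34 CPM, the macrophage ones 5.61 to 6.97 and 4.16 to 5.19, the endothelial ones 2.05 to 2.23 and 0.392 to 0.580, the epithelial ones 0.0811 to 0.140 and 0.419 to 1.19, and the hepatocyte ones 0 to 0.108 and 0.0894 to 0.193. In MEFD3min and MEFD3plu they were, in the same order, 1.94 to 2.39 and 1.35 to 1.92, 5.67 to 6.22 and 4.09 to 4.37, 0.471 to 0.564 and 0.125 to 0.338, 0.168 to 0.439 and 0 to 0.0564, and 0.0627 to 0.253 and 0.815 to 1.41. Des (muscle, 0.138 ± 0.123 and 1.96 ± 0.216 CPM without and with treatment), Krt8 (epithelial) and Alb (hepatocyte) rose at day 5 and Cd68 (macrophage) and Cdh5 (endothelial) fell, while at day 3 Des and Alb rose and Tnnt3 (muscle), Lyz2 (macrophage), Cdh5 and Krt8 fell. The part of these markers in the results was not tested. The mitochondrially encoded transcripts took 2.19% to 4.12% of the counts in day 0 and untreated samples and 4.96% to 6.64% in treated ones, and their part in the results was not tested. In such bulk samples a larger share of fat cells and more RNA per cell cannot be told apart.

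Both organelles' genes were mostly higher in treated cells at both days, the mitochondrial set without exception. At day 3, 20 of the 20 mitochondrial genes tested rose in MEFD3plu/MEFD3min and none fell, where 28.0% of all 15997 genes tested rose and 28.0% fell. Of the 22 peroxisomal genes, 18 rose, 1 fell (Decr2) and 3 did not pass the test (Abcd2, Pex2 and Pex26). At day 5, 20 of 20 mitochondrial genes rose again, against 26.3% of all genes rising and 24.2% falling. Of the peroxisomal genes 18 rose, 2 fell (Pex5 and Pex26) and 2 did not pass (Acox3 and Pex10). The median log2 fold change of the mitochondrial genes was 1.20 at day 3 and 1.73 at day 5, and that of the peroxisomal genes 0.88 and 0.83, while the median of all genes tested was -5.70e-04 and 0.01. Calls are at an adjusted p under 0.05 from the quasi-likelihood test of edgeR, adjusted by the Benjamini-Hochberg method over all 15997 genes, and every adjusted p given here comes from it. Scaling by total counts alone in place of TMM gave 20 and 16 rises in the mitochondrial and peroxisomal sets at day 5, while all genes split into 3072 higher and 5231 lower in place of 4210 and 3870 and their median moved to -0.15. Cpt1b alone had too few counts to be tested.

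The levels of single samples separated in the same way. The 3 treated samples lay above the 3 untreated ones for 20 of 20 tested mitochondrial genes at both days and for 19 of 22 peroxisomal genes at both days, with 1 peroxisomal gene below at day 3 and 2 at day 5. Of all genes tested, the treated samples lay above in 28.6% and below in 28.2% at day 3, and above in 32.5% and below in 29.6% at day 5. Peroxisomal genes that overlapped were Pex2 and Pex26 at day 3 and Pex10 at day 5.

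Summed over its 21 genes, the mitochondrial set stood at 1076 ± 24.98 CPM in MEFD0, 1101 ± 108 in MEFD3min and 987 ± 37.4 in MEFD5min (SD, n = 3). It stood at 3019 ± 154 in MEFD3plu and 3515 ± 115 in MEFD5plu. The 22 peroxisomal genes summed to 699 ± 9.75, 878 ± 45.8 and 789 ± 31.4 CPM in the same 3 untreated conditions, and to 1707 ± 95.5 and 1933 ± 63.5 in the treated ones. The ratio of the mitochondrial to the peroxisomal sum was 1.52 to 1.55 over the MEFD0 samples, 1.20 to 1.31 in MEFD3min and 1.23 to 1.26 in MEFD5min, against 1.75 to 1.80 in MEFD3plu and 1.80 to 1.84 in MEFD5plu. All 6 treated samples thus had a higher ratio than all 9 others, which is given as a description without a test. Together the 43 genes summed to 1738 to 1807 CPM in MEFD0 and 5251 to 5586 CPM in MEFD5plu.

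**Figure D1:**
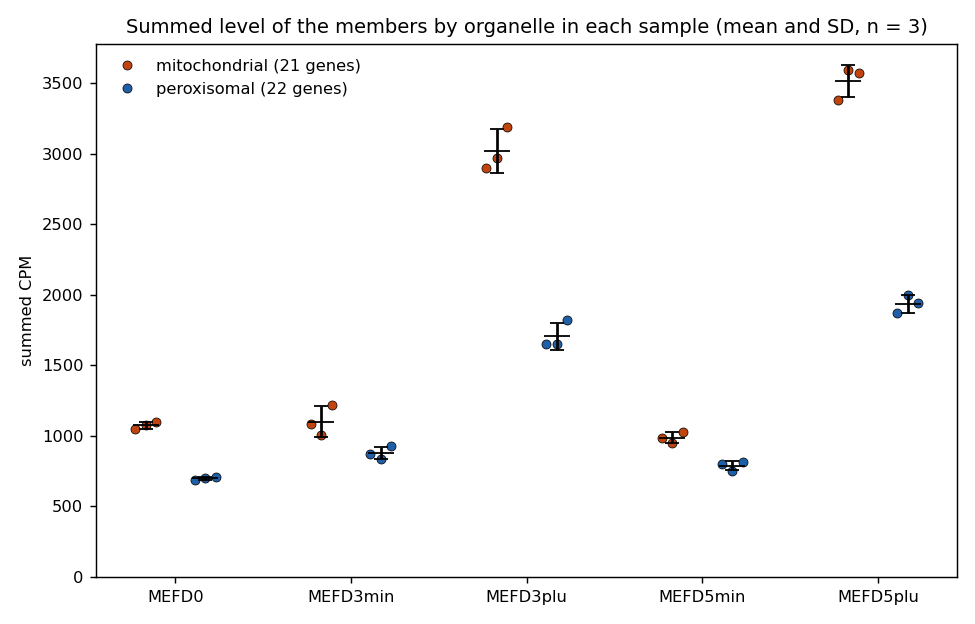
Summed CPM of the 21 mitochondrial (red) and 22 peroxisomal (blue) genes in each of the 15 samples, by condition, with the mean (dash) and SD (bar) over 3 samples. Every treated sample lies above every untreated and day 0 sample for both sets, and in MEFD5plu the mitochondrial sum is 3383 to 3591 CPM and the peroxisomal sum 1868 to 1995.

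**Figure D2:**
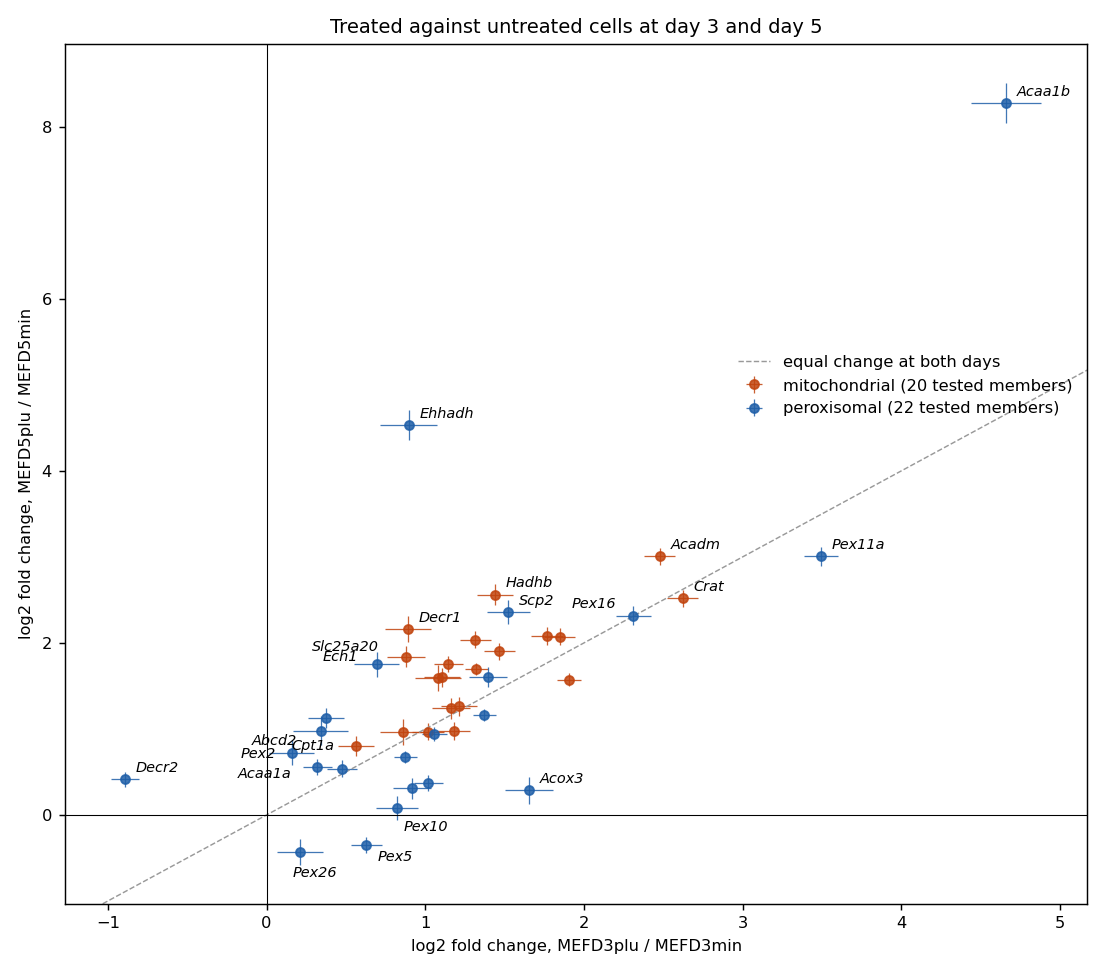
log2 fold change of each tested member in MEFD3plu/MEFD3min (horizontal) and in MEFD5plu/MEFD5min (vertical), with standard errors as bars, mitochondrial genes in red and peroxisomal genes in blue. The mitochondrial genes lie within 0.57 to 2.62 at day 3 and 0.80 to 3.01 at day 5, while the peroxisomal genes run from -0.89 to 4.66 and from -0.43 to 8.28.

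The sequence before the start of the members was read from RefSeq promoters (GRCm38.p6), which hold 250 bases before and 50 after each start and matched 39 promoters of 35 members. Crat, Abcd2, Cpt1b, Acaa2, Pex2, Pex19, Hsd17b4 and Decr1 were not matched. PPARs bind with their RXR partner to direct repeats of AGGTCA set apart by a single base, so the unit AGGTCA and this spaced repeat, the latter with up to 2 mismatches outside the spacer, were searched on both strands of the 300 bases. AGGTCA was found in 16.3% of the 32851 promoters in the table, in 4 of 17 promoters of mitochondrial members (23.5%) and in 1 of 22 of peroxisomal members (4.55%). The 4 were those of Acadm, Acadvl, Cpt1a and Echs1, and the 1 was that of Scp2. The spaced repeat was found in 3.86% of all promoters, in 3 of 17 of the mitochondrial members (Echs1, Etfa and Slc25a20, 17.6%) and in 0 of 22 of the peroxisomal ones. A match is a run of letters and not a measured binding site, and the lack of one says only that the letters are not in this window. The first 3 sequences belong to the peroxisomal genes that had the highest fold changes at day 5 and hold no match, and the next 4 belong to mitochondrial genes with a match, in capitals. Each is the 250 bases before the start, 5′ to 3′ on the gene's strand.
Acaa1b (chr9:119157094-119157343, minus strand): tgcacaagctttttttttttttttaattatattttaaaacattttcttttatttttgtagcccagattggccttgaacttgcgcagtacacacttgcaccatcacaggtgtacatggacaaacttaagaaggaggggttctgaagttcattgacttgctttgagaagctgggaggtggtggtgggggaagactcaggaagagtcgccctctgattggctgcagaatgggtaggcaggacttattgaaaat
Ehhadh (chr16:21787835-21788084, minus strand): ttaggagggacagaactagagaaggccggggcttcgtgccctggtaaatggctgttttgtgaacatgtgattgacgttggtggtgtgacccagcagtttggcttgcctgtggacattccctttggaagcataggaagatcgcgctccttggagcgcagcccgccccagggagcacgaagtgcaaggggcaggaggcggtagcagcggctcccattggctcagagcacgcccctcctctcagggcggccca
Pex11a (chr7:79743132-79743381, minus strand): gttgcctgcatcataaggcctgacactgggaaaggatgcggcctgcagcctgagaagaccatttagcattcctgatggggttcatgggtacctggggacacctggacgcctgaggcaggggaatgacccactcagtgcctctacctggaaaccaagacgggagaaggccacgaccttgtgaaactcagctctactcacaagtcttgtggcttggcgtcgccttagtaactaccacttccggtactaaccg
Acadm (chr3:153944644-153944893, minus strand): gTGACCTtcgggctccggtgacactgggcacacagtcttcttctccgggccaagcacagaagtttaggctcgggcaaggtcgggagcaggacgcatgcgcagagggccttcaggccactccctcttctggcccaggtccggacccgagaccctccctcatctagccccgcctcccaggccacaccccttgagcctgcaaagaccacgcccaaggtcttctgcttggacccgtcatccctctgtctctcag
Cpt1a (chr19:3323051-3323300, plus strand): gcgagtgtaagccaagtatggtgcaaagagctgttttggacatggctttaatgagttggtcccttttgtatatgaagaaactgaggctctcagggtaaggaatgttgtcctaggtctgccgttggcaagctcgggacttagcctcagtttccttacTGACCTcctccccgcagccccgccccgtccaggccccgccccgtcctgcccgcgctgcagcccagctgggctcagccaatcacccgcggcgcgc
Echs1 (chr7:140116422-140116671, minus strand): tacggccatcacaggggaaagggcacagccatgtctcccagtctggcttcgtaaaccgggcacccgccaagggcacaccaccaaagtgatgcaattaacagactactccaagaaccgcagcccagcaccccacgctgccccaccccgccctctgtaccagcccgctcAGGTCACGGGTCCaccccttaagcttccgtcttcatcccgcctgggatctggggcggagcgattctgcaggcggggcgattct
Etfa (chr9:55512244-55512493, minus strand): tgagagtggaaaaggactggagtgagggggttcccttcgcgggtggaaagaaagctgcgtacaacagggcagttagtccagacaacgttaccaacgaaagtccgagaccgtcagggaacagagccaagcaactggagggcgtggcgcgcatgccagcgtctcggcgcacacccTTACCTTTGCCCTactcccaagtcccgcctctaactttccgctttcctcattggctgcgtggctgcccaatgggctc
In Acadm the capitals are the letters of AGGTCA read on the other strand, with the match beginning 249 bases before the start, and in Cpt1a likewise at 94 bases. In Echs1 they are the spaced repeat with mismatches, whose first unit is the exact AGGTCA 83 bases before the start, and in Etfa they are the repeat on the other strand with no exact unit. The 7 genes were chosen for their fold changes or their matches, so they do not bear on whether a match goes with a rise.

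Genes of the carnitine shuttle rose together, 4 of the 4 tested at each day. Cpt1a (carnitine palmitoyltransferase of the outer membrane, the entry step that malonyl-CoA inhibits; ENSMUSG00000024900, chr19:3322334-3385733, plus strand) stood at 94.2, 115 and 86.96 CPM in the MEFD3min samples 1, 3 and 4 and at 147, 155 and 136 in MEFD3plu. At day 5 it stood at 48.1, 55.2 and 44.5 in MEFD5min and 95.3, 82.2 and 79.4 in MEFD5plu. Treated and untreated samples did not overlap at either day, but the treated day 5 samples were within the range of the MEFD0 samples or below it, at 91.99, 104 and 83.8 CPM. Its log2 fold change was 0.57 (SE 0.11, adjusted p = 4.30e-04) at day 3 and 0.80 (SE 0.12, adjusted p = 2.43e-05) at day 5, the lowest of the mitochondrial genes at both. Untreated cells themselves had less Cpt1a at day 5 than at day 0, with a change of -0.92 (SE 0.12, adjusted p = 5.90e-06), and MEFD5plu against MEFD0 gave -0.12 (SE 0.11, adjusted p = 0.363).

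The muscle form Cpt1b (ENSMUSG00000078937) had 0 to 10 counts in each sample and 81.4% of its exon bases overlap another annotated gene on the same strand. Cpt2, the partner enzyme of the inner membrane, rose by 1.32 (SE 0.07, adjusted p = 6.86e-11) and 1.70 (SE 0.07, adjusted p = 6.37e-12). Slc25a20, the carrier that exchanges acylcarnitine for carnitine, was at 20.9, 20.8 and 18.7 CPM in MEFD5min and 70.7, 74.6 and 70.2 in MEFD5plu, with changes of 0.88 (SE 0.12, adjusted p = 7.64e-06) and 1.84 (SE 0.12, adjusted p = 2.64e-09). Crat, the carnitine acetyltransferase, which is also found in peroxisomes, had the highest mitochondrial fold change at day 3. It went from 34.1, 40.4 and 32.8 CPM in MEFD3min to 211, 229.7 and 219.9 in MEFD3plu, a log2 fold change of 2.62 (SE 0.09, adjusted p = 4.86e-13), and the day 5 change was 2.52 (SE 0.10, adjusted p = 1.46e-12).

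The 4 acyl-CoA dehydrogenases, which start each round and differ in the chain length they prefer, rose at both days. Acadm, the medium-chain enzyme (ENSMUSG00000062908, chr3:153922357-153944632, minus strand), showed 79.5, 69.3 and 85.7 CPM in MEFD3min, 422, 425 and 459.7 in MEFD3plu, 61.2, 55.7 and 70.7 in MEFD5min and 489, 515 and 507 in MEFD5plu. The treated samples were several times above the untreated ones and the ranges were far apart. Its log2 fold change was 2.48 (SE 0.10, adjusted p = 1.36e-12) at day 3 and 3.01 (SE 0.10, adjusted p = 2.46e-13) at day 5, the latter the highest of the mitochondrial genes. Acadl, the long-chain enzyme, was at 71.9 ± 5.92 CPM in MEFD3min and 269.6 ± 9.42 in MEFD3plu, with changes of 1.91 (SE 0.08, adjusted p = 1.42e-12) and 1.57 (SE 0.07, adjusted p = 2.80e-11). Acadvl, the very long-chain enzyme, rose by 1.85 (SE 0.10) and 2.07 (SE 0.10). Of its exon bases 42.9% lie opposite Dvl2, so reads of the 2 genes cannot be told apart if the counting ignored strand. Acads, the short-chain enzyme, had the smallest changes of the 4, at 1.02 (SE 0.10) and 0.97 (SE 0.10).

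The steps from hydration to thiolysis rose in 5 of 5 genes at each day. Hadha and Hadhb code for the alpha and beta subunits of the trifunctional protein, which acts on long chains. Hadha was at 146 ± 19.3, 323 ± 14.1, 119 ± 8.85 and 401 ± 5.45 CPM in MEFD3min, MEFD3plu, MEFD5min and MEFD5plu, with changes of 1.15 (SE 0.09, adjusted p = 8.69e-09) and 1.75 (SE 0.09, adjusted p = 1.02e-10). Hadhb was at 47.00, 41.3 and 56.8 CPM in MEFD3min and 121, 122 and 151 in MEFD3plu, then at 39.8, 42.2 and 46.2 in MEFD5min and 238, 262 and 257 in MEFD5plu. The 3 MEFD5plu samples of Hadhb all lay above the 3 MEFD3plu samples. The change of Hadhb was 1.44 (SE 0.11, adjusted p = 9.66e-09) at day 3 and 2.56 (SE 0.12, adjusted p = 1.93e-11) at day 5. Acaa2, the thiolase for shorter chains, rose by 1.32 (SE 0.10) and 2.04 (SE 0.10). Echs1, the short-chain hydratase, rose by 1.21 (SE 0.11) and 1.26 (SE 0.11), and Hadh, the hydroxyacyl-CoA dehydrogenase, by 1.18 (SE 0.11) and 0.97 (SE 0.10).

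Auxiliary enzymes for unsaturated fatty acids rose in 3 of 3 genes at each day. Decr1, the mitochondrial 2,4-dienoyl-CoA reductase, was at 55.2, 44.5 and 68.2 CPM in MEFD3min, 95.4, 95.7 and 120.2 in MEFD3plu, 50.05, 39.6 and 53.2 in MEFD5min and 196, 223 and 221 in MEFD5plu. Its change was 0.89 (SE 0.14, adjusted p = 5.05e-05) at day 3 and 2.16 (SE 0.15, adjusted p = 4.06e-09) at day 5. The isomerase Eci1 rose by 1.77 (SE 0.10) and 2.08 (SE 0.10), and Eci2, an isomerase present in both organelles, by 1.16 (SE 0.12) and 1.24 (SE 0.12).

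The electron transfer genes rose in 3 of 3 cases. Etfa and Etfb are the subunits of the electron transfer flavoprotein and Etfdh passes its electrons on to ubiquinone. Etfa changed by 1.11 (SE 0.11) and 1.60 (SE 0.11), Etfb by 1.08 (SE 0.14) and 1.59 (SE 0.15), and Etfdh by 1.47 (SE 0.10) and 1.90 (SE 0.10). Etfb was counted at 22.4 ± 1.19 CPM in MEFD5plu where its partner Etfa was at 324 ± 21.1. Of the exon bases of Etfb 58.2% overlap other annotated genes on the same strand. Reads that fall there may have been dropped in the counting, which was not tested. Acot2, a matrix thioesterase that splits acyl-CoA, rose from 7.83 ± 0.143 to 14.2 ± 1.17 CPM at day 3 (0.86 (SE 0.14, adjusted p = 7.46e-05)) and by 0.97 (SE 0.15, adjusted p = 4.88e-05) at day 5, with 27.7% of its sequence shared with other Acot genes.

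Among the peroxisomal oxidation enzymes 7 of 8 rose and 1 fell at day 3, and 7 of 8 rose at day 5. The 3-ketoacyl-CoA thiolase Acaa1b (ENSMUSG00000010651, chr9:119148023-119157093, minus strand) was at 0.407, 0.702 and 0.370 CPM in MEFD3min and 12.4, 12.6 and 13.4 in MEFD3plu. It was at 0.223, 0.428 and 0.216 in MEFD5min and 89.2, 81.4 and 89.04 in MEFD5plu, so the gene was near 0 in all 9 day 0 and untreated samples. The log2 fold change of 4.66 (SE 0.22, adjusted p = 1.12e-11) at day 3 and 8.28 (SE 0.23, adjusted p = 3.01e-14) at day 5 was the highest of the 42 tested members at both days. Of its sequence 39.6% is shared with the sister thiolase Acaa1a or with Dlec1, which lies opposite 11.4% of its exon bases. Acaa1a was at 91.9, 91.05 and 80.3 CPM in MEFD3min and 111, 119 and 97.8 in MEFD3plu. Acaa1a itself moved by 0.32 (SE 0.09, adjusted p = 0.00706) and 0.56 (SE 0.09, adjusted p = 8.89e-05). Whether reads of Acaa1a were counted for Acaa1b was not tested.

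Ehhadh, the bifunctional enzyme of the classical peroxisomal pathway (ENSMUSG00000022853, chr16:21761287-21787807, minus strand), behaved differently at the 2 days. It was at 0.240, 0.265 and 0.279 CPM in MEFD0, 1.94, 1.35 and 1.72 in MEFD3min and 3.21, 3.04 and 3.04 in MEFD3plu. At day 5 it was at 1.28, 0.818 and 1.60 in MEFD5min and 28.4, 30.1 and 29.1 in MEFD5plu. The MEFD5plu samples were thus far above all the others, and untreated cells at day 3 were already above day 0. The change was 0.90 (SE 0.18, adjusted p = 3.69e-04) at day 3 and 4.53 (SE 0.17, adjusted p = 1.69e-12) at day 5, and 2.64 (SE 0.26, adjusted p = 1.20e-07) in MEFD3min against MEFD0. Hsd17b4, the bifunctional enzyme that also serves branched chains, rose by 1.37 (SE 0.07, adjusted p = 3.06e-11) and 1.17 (SE 0.07, adjusted p = 6.53e-10).

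Acox3, the oxidase for branched-chain acyl-CoA, passed the test at day 3 but not at day 5. It was at 14.1, 16.1 and 9.42 CPM in MEFD3min and 44.5, 43.2 and 37.5 in MEFD3plu, and at 10.8, 12.1 and 9.25 in MEFD5min and 14.1, 12.7 and 12.4 in MEFD5plu. The changes were 1.66 (SE 0.15, adjusted p = 6.30e-08) and 0.29 (SE 0.16, adjusted p = 0.136). Decr2, the peroxisomal 2,4-dienoyl-CoA reductase, fell at day 3 and rose at day 5. It was at 31.9, 30.7 and 34.4 CPM in MEFD3min against 17.3, 17.05 and 17.96 in MEFD3plu, and at 24.6, 21.7 and 24.5 in MEFD5min against 30.4, 33.3 and 30.7 in MEFD5plu. The groups did not overlap at either day and stood in opposite order, with changes of -0.89 (SE 0.09, adjusted p = 1.51e-07) and 0.41 (SE 0.09, adjusted p = 7.48e-04). Its mitochondrial counterpart Decr1 rose at both days.

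Scp2, which codes for a peroxisomal thiolase and a sterol carrier protein, rose by 1.52 (SE 0.13, adjusted p = 4.13e-08) and 2.36 (SE 0.14, adjusted p = 5.09e-10), to 468, 543 and 514 CPM in MEFD5plu. Other annotated genes, a pseudogene of Scp2 among them, share 29.7% of its sequence. Ech1, a dienoyl-CoA isomerase found in both organelles, rose by 0.69 (SE 0.14, adjusted p = 5.11e-04) and 1.75 (SE 0.15, adjusted p = 4.54e-08).

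Of the 2 transporters that carry acyl-CoA across the peroxisomal membrane, Abcd3 rose by 0.87 (SE 0.07, adjusted p = 1.63e-08) and 0.68 (SE 0.07, adjusted p = 8.09e-07). Abcd2, a carrier of very long chains, was lower at day 0 than in all later conditions. It was at 5.45, 5.73 and 4.41 CPM in MEFD0, 40.9, 38.01 and 48.1 in MEFD3min, 50.8, 50.3 and 59.5 in MEFD3plu, 41.5, 21.9 and 39.7 in MEFD5min and 68.4, 70.3 and 65.7 in MEFD5plu. MEFD3min against MEFD0 gave 3.02 (SE 0.20, adjusted p = 6.07e-10) and MEFD5min against MEFD0 2.73 (SE 0.19, adjusted p = 5.94e-09), so untreated cells had more of it than day 0 cells at both days. MEFD3plu/MEFD3min gave 0.34 (SE 0.17, adjusted p = 0.101) and MEFD5plu/MEFD5min 0.98 (SE 0.17, adjusted p = 1.57e-04).

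**Figure D3:**
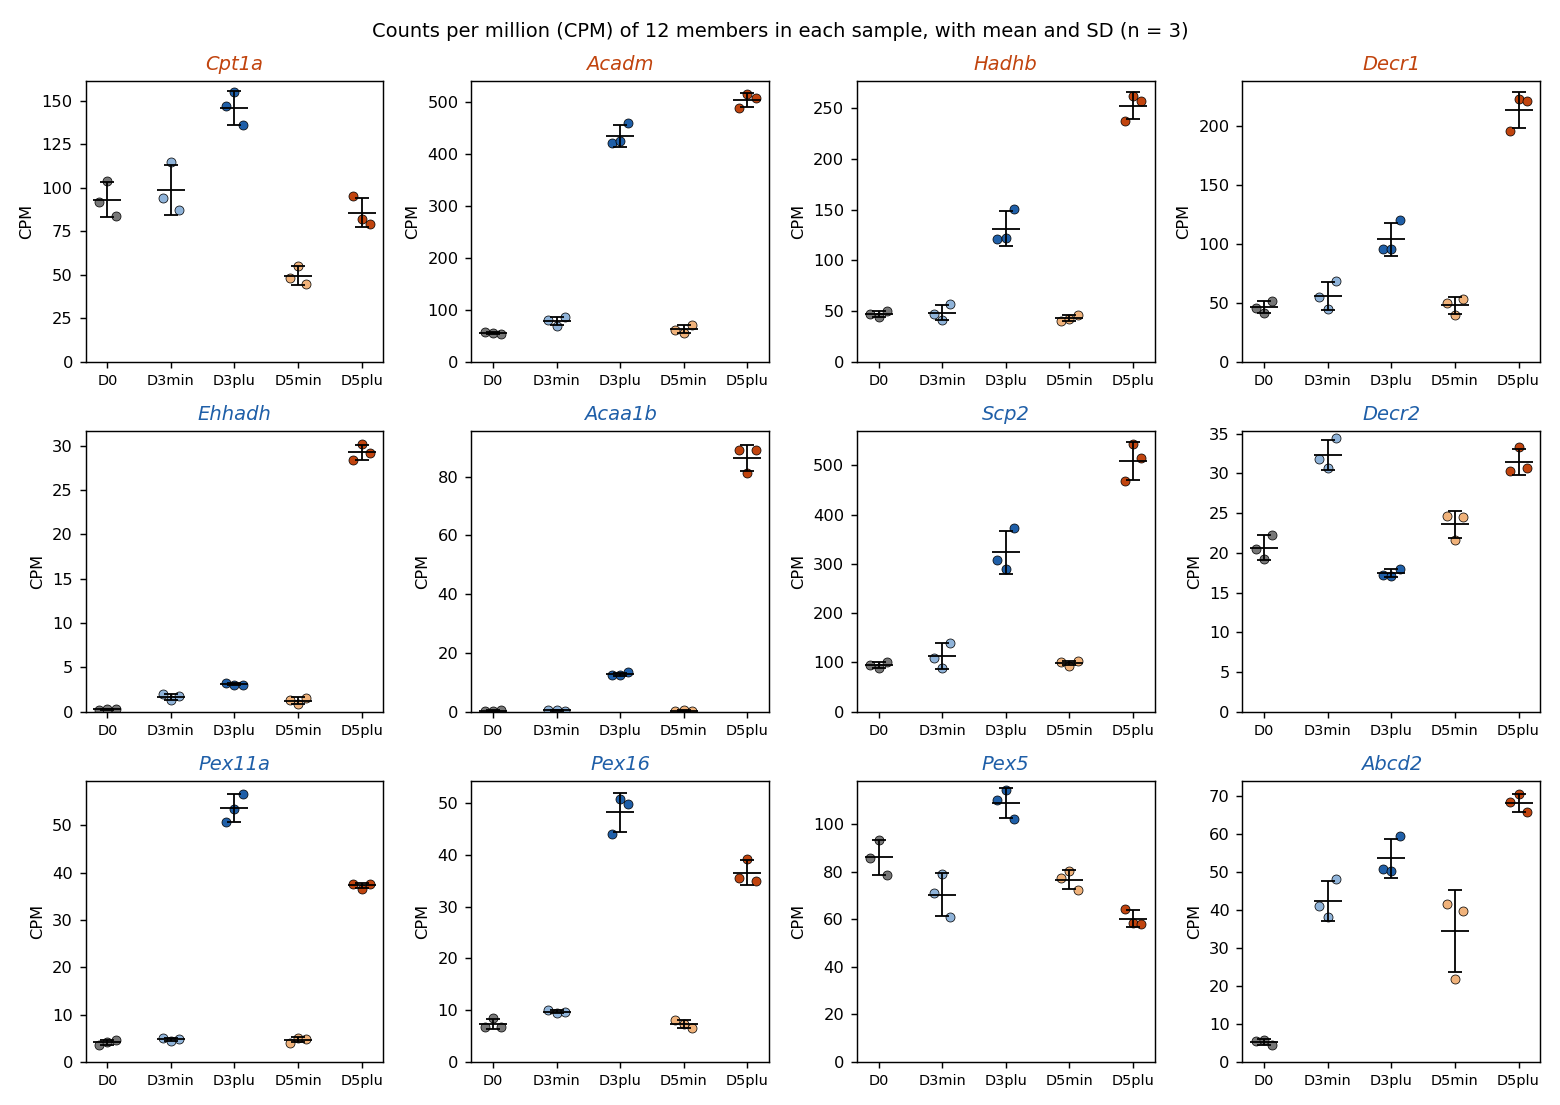
CPM of 12 members in each sample (points), by condition, with the mean (dash) and SD (bar) over 3 samples, on linear axes that start at 0, with titles in red for mitochondrial and blue for peroxisomal genes. Ehhadh and Acaa1b are highest in MEFD5plu, Pex11a and Pex16 in MEFD3plu, Decr2 lies below its untreated level at day 3 and above it at day 5, Pex5 does the opposite, and Abcd2 is low in MEFD0 alone.

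Genes of peroxisome assembly rose in 10 of 12 cases at day 3, with none falling, and in 9 of 12 at day 5, with 2 falling. Pex11a, which elongates the membrane before division (ENSMUSG00000030545, chr7:79735957-79743131, minus strand), had the highest fold change of the 12 at both days. It was at 5.01, 4.38 and 4.91 CPM in MEFD3min and 50.8, 53.5 and 56.7 in MEFD3plu, and at 4.05, 5.06 and 4.84 in MEFD5min and 37.7, 36.6 and 37.6 in MEFD5plu. The change was 3.49 (SE 0.11, adjusted p = 8.74e-14) and 3.01 (SE 0.11, adjusted p = 7.44e-13). All 3 genes of membrane protein insertion rose at both days. Pex16 was at 10.1, 9.49 and 9.55 CPM in MEFD3min and 43.9, 50.9 and 49.8 in MEFD3plu, a change of 2.31 (SE 0.11, adjusted p = 1.27e-11), with 2.32 (SE 0.11, adjusted p = 3.55e-11) at day 5. Pex19, the soluble chaperone for membrane proteins, rose by 1.06 (SE 0.08, adjusted p = 4.25e-09) and 0.94 (SE 0.08, adjusted p = 4.54e-08). Pex3, its docking site, rose by 0.37 (SE 0.11, adjusted p = 0.00911) and 1.13 (SE 0.11, adjusted p = 3.86e-07). Without replicate 4 of MEFD3plu the day 3 call of Pex3 was lost.

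Matrix import was less uniform. Pex5, the receptor for most matrix enzymes (ENSMUSG00000005069, chr6:124396816-124415067, minus strand), was at 71.03, 79.2 and 61.2 CPM in MEFD3min and 110.4, 114 and 102 in MEFD3plu, and at 77.5, 80.4 and 72.6 in MEFD5min and 64.4, 58.5 and 57.9 in MEFD5plu. It was higher in treated samples at day 3 and lower at day 5, with no overlap at either, at 0.63 (SE 0.10, adjusted p = 2.39e-05) and -0.35 (SE 0.10, adjusted p = 0.00570). Pex7, the receptor for the other import signal, rose by 0.47 (SE 0.10, adjusted p = 4.68e-04) and 0.54 (SE 0.10, adjusted p = 1.99e-04). Of the docking proteins, Pex13 rose by 1.40 (SE 0.12, adjusted p = 1.98e-08) and 1.61 (SE 0.12, adjusted p = 8.68e-09), and Pex14 by 1.02 (SE 0.09, adjusted p = 4.92e-08) and 0.38 (SE 0.09, adjusted p = 0.00274). With scaling by total counts alone the day 5 call of Pex14 was lost, and 28.3% of its exon bases lie opposite another gene.

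The ubiquitin ligase genes Pex2 and Pex10, which recycle the receptor, passed the test on different days. Pex10 went from 7.32 ± 1.33 to 12.96 ± 0.716 CPM at day 3 (0.82 (SE 0.13, adjusted p = 5.23e-05)) and was at 6.71 ± 0.378 and 7.12 ± 0.355 at day 5 (0.08 (SE 0.14, adjusted p = 0.647)). Pex2 showed 0.16 (SE 0.14, adjusted p = 0.365) at day 3, at 40.6, 34.0 and 55.3 CPM in MEFD3min and 45.4, 42.1 and 57.1 in MEFD3plu. At day 5 Pex2 showed 0.73 (SE 0.14, adjusted p = 4.38e-04). Pex6, the ATPase that pulls the receptor out of the membrane, rose by 0.91 (SE 0.12, adjusted p = 4.58e-06) at day 3 and by 0.31 (SE 0.12, adjusted p = 0.0409) at day 5. Pex26, its membrane anchor, was at 12.2, 11.4 and 10.7 CPM in MEFD5min and 9.53, 7.89 and 7.99 in MEFD5plu, with 0.21 (SE 0.14, adjusted p = 0.223) at day 3 and -0.43 (SE 0.15, adjusted p = 0.0228) at day 5. The day 5 call of Pex6 was lost with DESeq2, with scaling by DESeq2's size factors or total counts, at an adjusted p under 0.01, or without replicate 1 of MEFD0, replicate 1 or 4 of MEFD5min or replicate 1 or 4 of MEFD5plu. That of Pex26 was lost at an adjusted p under 0.01, or without replicate 1 of MEFD5min or replicate 3 or 4 of MEFD5plu.

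The treatment by day interaction tested whether the log2 fold change at day 3 differed from that at day 5, with negative values where day 5 was larger. The adipogenic mix was removed after day 3, so time and removal of the mix cannot be told apart. For the mitochondrial genes 1 was larger at day 3 (Acadl), 10 were larger at day 5 and 9 did not pass the test, with a median of -0.34. Of all genes tested 22.6% were higher at day 3 and 25.8% at day 5 in this sense, 48.5% in all, with a median of -0.03. The strongest mitochondrial differences were in Decr1 at -1.27 (SE 0.20, adjusted p = 7.45e-05), Hadhb at -1.12 (SE 0.16, adjusted p = 2.14e-05) and Slc25a20 at -0.96 (SE 0.17, adjusted p = 1.83e-04). Acadl had 0.33 (SE 0.10, adjusted p = 0.0133), a call that was lost without a filter on low counts, and Cpt1a, at -0.23 (SE 0.16, adjusted p = 0.253), did not pass. With the replicate number as a block Eci1 also passed, at -0.31 and an adjusted p of 0.0465, against 0.0793 without the block.

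Of the 10 peroxisomal oxidation and transport genes 6 had the larger effect at day 5 (Ehhadh, Acaa1b, Decr2, Ech1, Scp2 and Abcd2) and 1 at day 3 (Acox3), with a median of -0.74. Of the 12 Pex genes 6 had the larger effect at day 3 (Pex5, Pex6, Pex10, Pex11a, Pex14 and Pex26) and 2 at day 5 (Pex2 and Pex3), with a median of 0.30. Ehhadh stood at -3.63 (SE 0.25, adjusted p = 5.32e-09) and Acaa1b at -3.62 (SE 0.41, adjusted p = 2.18e-06), followed by Decr2 at -1.31 (SE 0.12, adjusted p = 2.47e-07). At the other end were Acox3 at 1.37 (SE 0.22, adjusted p = 6.33e-05), Pex5 at 0.98 (SE 0.13, adjusted p = 1.58e-05) and Pex10 at 0.74 (SE 0.19, adjusted p = 0.00420). The counts of the groups were not compared by a test, since the genes had been listed with results of these data known. The interaction of Etfb, Abcd2 and Pex2 was lost under several alternatives each, and with scaling by total counts that of Cpt2, Etfa and Etfdh too. That scaling moved the median of all genes to 0.15 and their split to 4736 higher at day 3 and 3220 at day 5, in place of 3622 and 4132, and gave 2 and 6 mitochondrial and 10 and 6 peroxisomal genes.

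**Figure D4:**
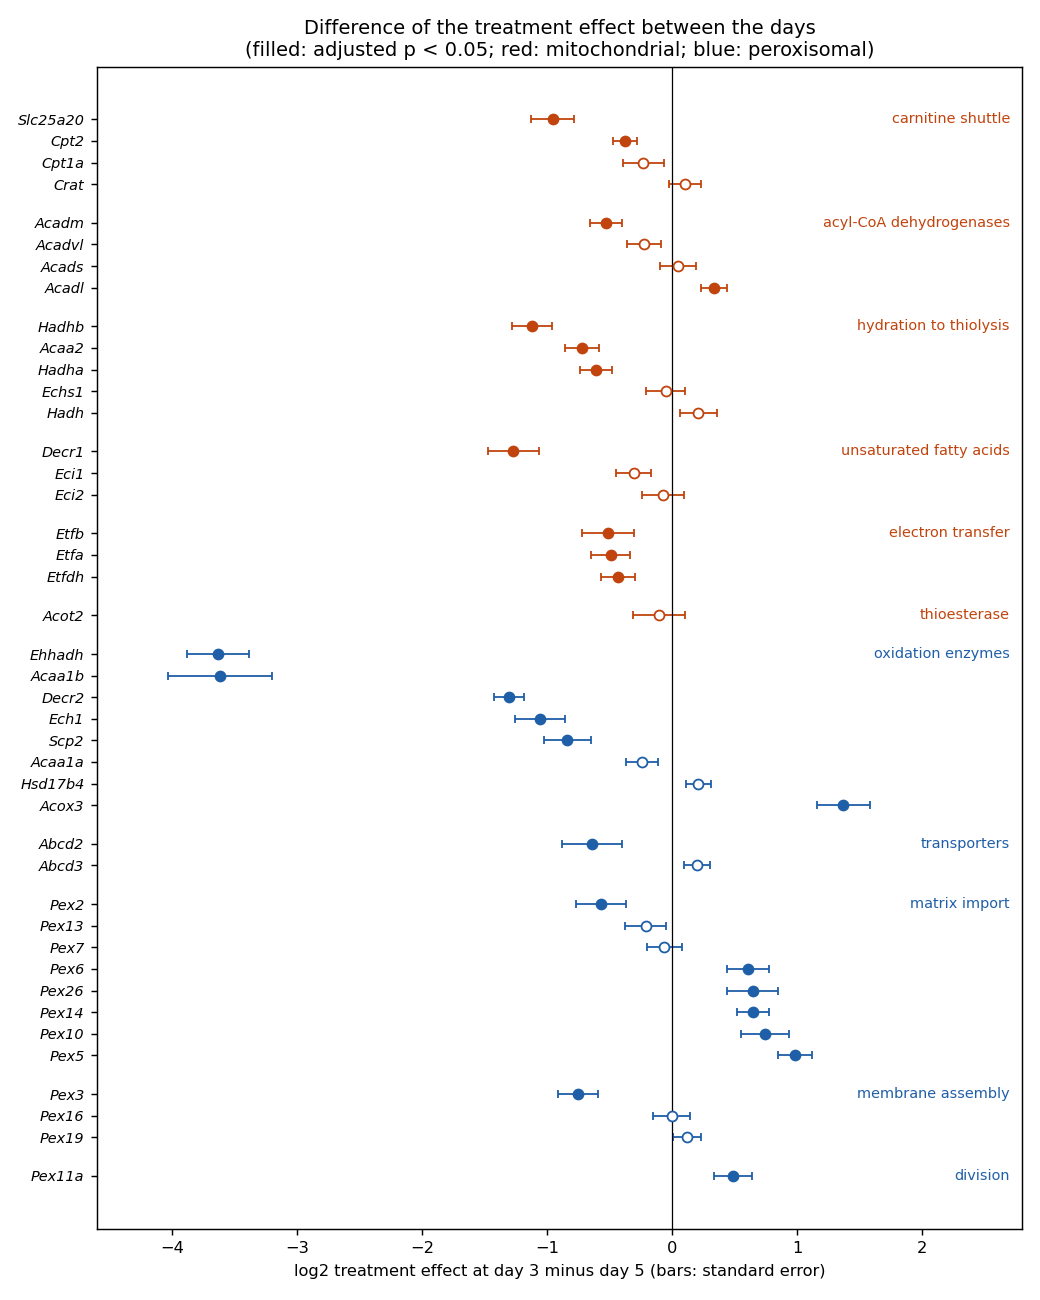
Difference of the treatment effect between the days (log2 fold change at day 3 minus that at day 5, horizontal) for the 42 tested members by role, with standard errors as bars and filled points at an adjusted p under 0.05. Points left of 0 had the larger effect at day 5: Ehhadh (-3.63) and Acaa1b (-3.62) lie farthest left, and Acox3 (1.37) farthest right, with 6 Pex genes of matrix import and division also filled to the right.

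Compared within the treated cells, 8 mitochondrial genes were higher and 3 lower in MEFD5plu than in MEFD3plu, where 33.8% of all genes were higher and 29.2% lower. Of the peroxisomal oxidation and transport genes 5 were higher and 2 lower, and of the Pex genes 2 were higher and 8 lower. The 3 mitochondrial genes that fell were Cpt1a (-0.77, SE 0.11), Crat (-0.63, SE 0.09) and Acot2 (-0.48, SE 0.14). The highest level over the 5 conditions was in MEFD5plu for 15 mitochondrial and 9 peroxisomal genes, in MEFD3plu for 6 and 12, and in MEFD3min for 1 peroxisomal gene, Decr2. This comparison shares its samples with those by treatment, so its values stand beside them and add no separate support. Here too, time and removal of the mix cannot be told apart.

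Time in culture without treatment moved fewer members. In MEFD3min against MEFD0, 6 mitochondrial genes rose and 3 fell, and 12 peroxisomal genes rose and 2 fell, with 31.4% of all genes rising and 28.6% falling. In MEFD5min against MEFD0, 1 mitochondrial gene rose (Acadvl) and 4 fell (Cpt1a, Crat, Acadl and Eci1), and 6 peroxisomal genes rose and 1 fell (Hsd17b4), against 24.5% and 21.9% of all genes. The largest of these were the rises of Abcd2 and Ehhadh given above, and Acaa1a rose by 0.85 (SE 0.09, adjusted p = 5.04e-07) and Pex3 by 0.84 (SE 0.11, adjusted p = 6.85e-06) at day 3. Crat fell, with changes of -0.42 (SE 0.09, adjusted p = 6.96e-04) in MEFD3min and -0.95 (SE 0.09, adjusted p = 3.17e-07) in MEFD5min against MEFD0. From MEFD3min to MEFD5min 2 mitochondrial genes rose and 8 fell, and 0 peroxisomal genes rose and 4 fell, with 21.3% and 21.5% of all genes. Treated cells against MEFD0 gave 20 mitochondrial rises at day 3 and 19 at day 5, with no falls, where 33.9% and 35.2% of all genes rose. The peroxisomal genes gave 20 rises and 1 fall at day 3 and 19 rises and 1 fall at day 5, where 29.7% and 29.8% of all genes fell. Those against day 0 share the MEFD0 samples. With scaling by total counts alone, 3 mitochondrial genes rose and 4 fell from MEFD0 to MEFD3min, as all genes split into 4235 higher and 5415 lower in place of 5024 and 4578. Between MEFD3min and MEFD5min it gave 2 and 6 mitochondrial and 1 and 3 peroxisomal genes, with 4302 and 2564 of all genes in place of 3400 and 3445, and for MEFD5plu against MEFD0 it gave 4601 and 5933 of all genes in place of 5634 and 4766. Single libraries moved the smaller of these counts. Without replicate 4 of MEFD3min the mitochondrial rises from MEFD0 to MEFD3min were 3, and without replicate 3 of MEFD0 the peroxisomal falls there were 1. From MEFD0 to MEFD5min the mitochondrial rises were 2 without replicate 3 or 4 of MEFD3min or with the replicate number as a block, and 3 without replicate 3 of MEFD5min. From MEFD3min to MEFD5min the mitochondrial rises ran from 0 to 4 and the falls from 5 to 10 as each library was left out, and the peroxisomal fall in MEFD3plu against MEFD0 was lost without replicate 4 of MEFD0 or replicate 1 or 3 of MEFD3plu.

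**Figure D5:**
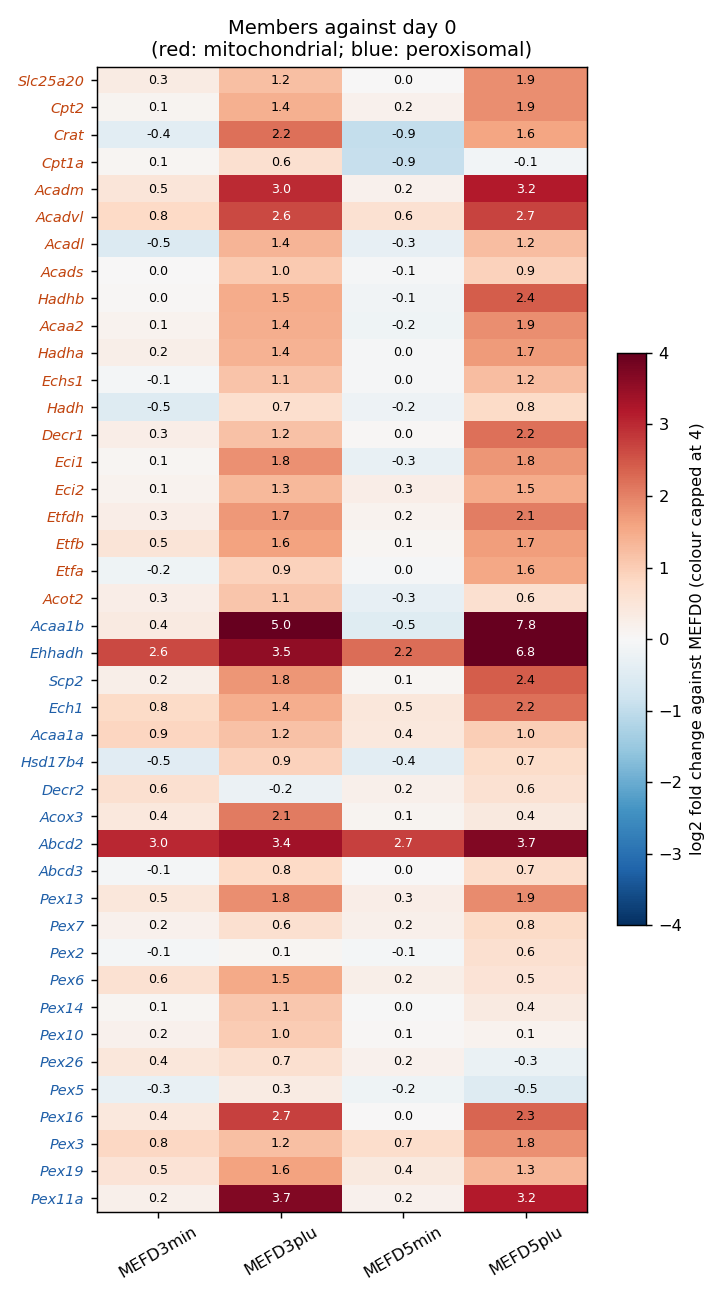
log2 fold change against MEFD0 of the 42 tested members (rows, by role, with mitochondrial names in red and peroxisomal names in blue) in the 4 later conditions (columns), with the colour capped at 4 in either direction. The treated columns are higher in most rows, while Abcd2 and Ehhadh are also high in the untreated columns, at 3.02 and 2.64 in MEFD3min.

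Levels of different genes were set side by side per kilobase of exon (all exons of a gene merged). In MEFD5plu the highest were Etfa at 176 ± 11.5 CPM per kb, Scp2 at 146 ± 10.9, Acaa2 at 133 ± 4.33, Acadm at 129 ± 3.42 and Acadl at 123 ± 6.20. Neighbours in this order from Acaa2 to Acadl differed by less than 1 SD of the more variable gene. In MEFD0 Etfa (59.95 ± 2.31) and Acadl (52.03 ± 0.861) were also highest, whereas Acadm was at 14.2 ± 0.502. Cpt1b was the lowest in every condition, at 0.0597 ± 0.0361 CPM per kb in MEFD5plu. Taking the longest transcript as the length moved Acadm to the first place in MEFD5plu, and 36 of the 43 levels moved by more than 1 SD with that length.

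Other genes of the pathway, 53 in a list of regulators, related enzymes and further peroxisomal genes, gave 28 rises and 6 falls among 49 tested at day 3 and 36 rises and 2 falls at day 5. Of all genes tested, 28.0% rose and 28.0% fell at day 3, and 26.3% rose and 24.2% fell at day 5. Of 7 regulators 6 rose at day 3 and 5 at day 5. The treated Ppard samples overlapped the untreated ones at day 3 and lay below them at day 5. Pparg rose by 2.62 (SE 0.10, adjusted p = 1.69e-12) and 3.16 (SE 0.11, adjusted p = 3.37e-13), and Ppargc1a, a coactivator of oxidative genes, by 3.69 (SE 0.24, adjusted p = 9.22e-10) and 2.81 (SE 0.25, adjusted p = 9.72e-08). Rxra, the partner of the PPARs, rose by 1.48 (SE 0.10, adjusted p = 1.96e-09) and 0.30 (SE 0.10, adjusted p = 0.0236). Of the acyl-CoA synthetases, which activate fatty acids ahead of both organelles, Acsl1 rose by 7.02 (SE 0.12, adjusted p = 1.21e-16) and 6.08 (SE 0.12, adjusted p = 1.27e-15) and Acsl6 fell by 3.87 (SE 0.16) and 2.07 (SE 0.13). Acsl3 changed by -0.71 (SE 0.08, adjusted p = 1.02e-06) and 0.04 (SE 0.08, adjusted p = 0.703). Acsl4 changed by 0.20 (SE 0.07, adjusted p = 0.0272) and -0.43 (SE 0.07, adjusted p = 8.76e-05). The treated Acsl5 samples lay below the untreated ones at day 3 and overlapped them at day 5. All 3 genes of malonyl-CoA, which inhibits Cpt1a, rose at both days. Of the carboxylases that make it, Acaca rose by 0.61 (SE 0.11, adjusted p = 1.96e-04) and 0.28 (SE 0.11, adjusted p = 0.0451), and Acacb rose by 1.32 (SE 0.34, adjusted p = 0.00361) and 3.49 (SE 0.32, adjusted p = 1.37e-07). The day 5 call of Acaca does not pass at an adjusted p under 0.01. Against MEFD0, Acaca was lower in MEFD3plu (-0.36, SE 0.11, adjusted p = 0.00994) and MEFD5plu (-0.65, SE 0.11, adjusted p = 7.38e-05), while Acacb was higher in both. Mlycd, the decarboxylase that breaks malonyl-CoA down, rose by 1.78 (SE 0.12, adjusted p = 1.36e-09) and 1.54 (SE 0.12, adjusted p = 2.80e-08). Acox2, a peroxisomal oxidase of bile acid intermediates and branched chains, had no more than 3 counts in any sample of MEFD0, MEFD3min or MEFD5min. Against that floor per library its level was at least 153-fold higher in MEFD3plu and at least 49.3-fold higher in MEFD5plu.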

How the data were processed

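RNA from 15 MEF samples was sequenced as 100 bp paired reads, and per the labels and the study's methods the reads were aligned to GRCm38 and the authors deposited raw counts of reads per Ensembl gene, without normalization. The submitters' processing notes name TopHat2 2.1.0, HTSeq and DESeq2 without their roles. The labels name an unstranded library kit and the methods a stranded one, and the strand setting of the counting is not given in the sources used here. Identifiers were matched to GENCODE M21 (46091 of 46603). In R 4.3.3, edgeR 4.0.16 (filterByExpr on the 5 conditions, TMM, glmQLFit and glmQLFTest, 1 fit of all 15 samples without covariates) gave log2 fold changes for 15997 genes, with standard errors taken from the F statistic. The threshold was 0.05 on p-values adjusted by the Benjamini-Hochberg method. CPM use the TMM scaling. The scripts were tested on simulated data. The smallest p that an exact two-sided test can give for 3 against 3 samples is 0.1. Replicates of every condition differed by more than sampling noise.

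The 43 members, the lists of other genes and the rule for naming genes were chosen with earlier results of these data known. That rule names the 3 members of each organelle with the highest and the 3 with the lowest fold change among those called in each comparison by treatment and in the interaction, 15 members chosen by role, untested members and members called in opposite directions. Shared sequence is the percentage of the 50-base stretches of a gene's exons that other genes hold. A floor of 3 counts, which covers counting error only, stands for values at 0. The replicate numbers 1, 3 and 4 come from the titles, and no source says what they share. Deviations from the condition means over all genes were correlated between same-numbered treated and untreated samples. The values were 0.143, 0.228 and 0.360 at day 3 and 0.0422, -0.00453 and 0.0538 at day 5. Same-numbered MEFD0 samples gave 0.0837 to 0.180 with MEFD3min and 0.0706 to 0.124 with MEFD3plu. Differently numbered samples were not compared, so whether the numbers pair the samples was not tested. Alternatives were DESeq2 1.42.0, DESeq2's size factors or total counts for scaling, no filter, at least 10 counts in every sample, the compared samples alone, an adjusted p under 0.01, the replicate block, each sample left out, and Eci2, Crat and Ech1 left out. Leaving out the 7 members with over 25% shared or overlapping sequence was chosen after seeing the data. Protein sequences were not used here.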

Additional observations from a re-analysis of the deposited data

Results flagged for a closer look

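The treatment effect differed between day 3 and day 5 in 26 of the 42 members tested, by the interaction in edgeR's quasi-likelihood test at an adjusted p under 0.05, beside 48.5% of all 15997 genes. Values are the log2 fold change at day 3 minus that at day 5, in which time and removal of the adipogenic mix cannot be told apart. Among mitochondrial genes the effect was larger at day 5 in Decr1 (-1.27), Hadhb (-1.12), Slc25a20 (-0.96), Acaa2 (-0.72), Hadha (-0.61), Acadm (-0.53), Etfb (-0.51), Etfa (-0.49), Etfdh (-0.44) and Cpt2 (-0.38), and larger at day 3 in Acadl (0.33). Among peroxisomal genes it was larger at day 5 in Ehhadh (-3.63), Acaa1b (-3.62), Decr2 (-1.31), Ech1 (-1.06), Scp2 (-0.84), Pex3 (-0.75), Abcd2 (-0.64) and Pex2 (-0.57). It was larger at day 3 in Acox3 (1.37), Pex5 (0.98), Pex10 (0.74), Pex14 (0.64), Pex26 (0.64), Pex6 (0.61) and Pex11a (0.49). Decr2 and Pex5 passed the test in opposite directions at the 2 days. Outlying samples within a condition were not tested, since each condition has 3 samples.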

How the results depend on the processing

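Of the 25 alternatives run, 15 left out 1 sample each. In each alternative, all tested mitochondrial members apart from Cpt1b rose in treated cells at both days. Cpt1b was tested without a filter, at 4, 3 and 1 counts in MEFD3min and 2, 1 and 0 in MEFD3plu. All other counts by treatment kept to within 1.5 times apart from the peroxisomal falls at day 5. Those were 1 in place of 2 at an adjusted p under 0.01 and 1 to 2 as samples were left out. The peroxisomal rises ran from 17 to 20 at day 3 and from 17 to 19 at day 5 as samples were left out. Scaling by total counts moved the day 5 medians to 1.56 for mitochondrial and 0.67 for peroxisomal members. In the interaction, mitochondrial members larger at day 3 were 2 with total counts, 0 without a filter and 0 at an adjusted p under 0.01, and those larger at day 5 were 6 with total counts. From MEFD0 to MEFD3min, mitochondrial rises were 3 with total counts, with the compared samples alone and at an adjusted p under 0.01 (3 to 8 as samples were left out), and peroxisomal falls were 1 with the compared samples alone and at an adjusted p under 0.01 (1 to 2). From MEFD0 to MEFD5min, mitochondrial rises were 2 with at least 10 counts or the compared samples alone, 0 without members of shared sequence, and 1 to 3 as samples were left out. From MEFD3min to MEFD5min, mitochondrial rises were 1 without a filter, 0 with the compared samples alone and at an adjusted p under 0.01 (0 to 4), and mitochondrial falls were 4 in the last 2 settings (5 to 10). Peroxisomal rises there were 1 with total counts, and falls were 8 without a filter and 2 with the compared samples alone. Against MEFD0, the peroxisomal fall in MEFD3plu was 0 without a filter and at an adjusted p under 0.01 (0 to 1), and with total counts MEFD5plu had 1 mitochondrial and 2 peroxisomal falls. The causes were not tested.

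With the replicate number as a block, mitochondrial rises from MEFD0 to MEFD5min were 2 in place of 1, Eci1 passed in the interaction, and the block changed no other call by treatment or in the interaction. Differences that reversed in sign had passed no test. At day 5 Pex10 was -0.0796 with total counts. In the interaction total counts gave 0.13 for Echs1, 0.11 for Eci2, 0.0740 for Acot2, 0.12 for Pex7 and 0.18 for Pex16, and Pex16 was 0.0303 with DESeq2, 0.0304 with its size factors and 0.0335 with the compared samples alone. As samples were left out, Acads ran from -0.0191 to 0.176, Echs1 from -0.153 to 0.0988, Eci2 from -0.183 to 0.0750, Acot2 from -0.205 to 0.00793, Pex7 from -0.142 to 0.0316 and Pex16 from -0.0891 to 0.116. The planned comparison of protein sequences was not run.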
